A study of Mus musculus with 7 samples.

Results

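The promoters of 10 genes through which podocytes hold on to the glomerular basement membrane were followed by DNase-Seq in cultured mouse podocytes. The genes were the integrin subunits *Itga3*, *Itgb1*, *Itgav*, *Itga1*, *Itga2*, *Itgb3*, *Itgb5* and *Itgb8*, together with *Ilk* and *Tln1*, which act on the cytoplasmic side of integrins. They were chosen by name, and a peak was assigned to a gene when it overlapped 500 nt on either side of any of its protein-coding transcription start sites (TSSs). All 10 genes, with 26 TSSs, had at least 1 such peak in every list, as did 21835 of the 21853 protein-coding genes on chromosomes 1 to 19, X and Y. The 10 genes held 23 promoter peaks in NG, 18 under HG+NT and 19 under HG+miR-93.

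Integrins are heterodimers of an α and a β subunit that bind extracellular matrix outside the cell and, through talin and the complex around integrin-linked kinase, the actin cytoskeleton inside it. In podocytes α3β1 is the main receptor for laminin of the basement membrane, and loss of either subunit from podocytes is known to disturb the filtration barrier. DNaseI cuts DNA that is not wrapped in nucleosomes, so that fragments pile up at accessible promoters.

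The cells were conditionally immortalised mouse podocytes, a line, differentiated before use. Over 36 h, NG cells had 5 mM glucose, and HG cells 25 mM glucose together with a mimic at 50 nM, which was either a non-targeting control (HG+NT) or miR-93 (HG+miR-93), so that both high glucose groups carried a mimic and the NG group is labelled with none. Each of the 3 conditions had 2 replicates, and 1 sample of genomic DNA, digested with less DNaseI, was the common input. Each deposited list is named as a joint set of the replicates of its condition, so no spread between replicates could be set against a difference between conditions, and no test was made.

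There were 1036304 NG peaks, 846027 HG+NT peaks and 900109 HG+miR-93 peaks, which extended to peaks with a p of 0.9. Before any scaling, the median promoter peak rested on 9 fragments in NG, 15 under HG+NT and 20 under HG+miR-93. Relative to NG the depth was 1.72 times for HG+NT and 2.30 times for HG+miR-93. Each peak has a fold, which is the fragments at its summit over the local mean of the input, each increased by 1. For each gene the promoter peak with the highest fold was taken, and its fold was ranked within its own list as a percentile among the 21835 genes, so that lists of unequal depth could be set side by side. From the fold and p of a peak the pileup was solved, which is the number of fragments at the summit scaled to the depth of the input. Its 95% exact Poisson interval covers counting error only. Fragments given below for single genes are scaled in this way. The median pileup over all genes was 4.91 in NG, 4.67 under HG+NT and 4.66 under HG+miR-93. As a check of the label, the promoters of 11 podocyte marker genes had a median percentile of 46.4 in NG, 66.2 under HG+NT and 56.5 under HG+miR-93. Among them *Actn4* (87.7, 93.3 and 90.8) and *Synpo* (91.1, 96.3 and 71.4) were high in all 3 lists, while *Nphs1*, encoding nephrin, stood at 9.99, 55.0 and 64.1 and *Cdkn1c*, encoding a cell cycle inhibitor, at 20.5, 66.2 and 29.4. The 4 leukocyte genes had medians of 23.6, 40.0 and 40.3, the 5 endothelial genes of 46.4, 48.4 and 47.7, the 4 mesangial genes of 63.8, 65.0 and 75.7 and the 4 proximal tubule genes of 66.1, 26.3 and 45.1. A promoter percentile is not a transcript level, and fewer cells with an open promoter cannot be told apart from fewer cuts per cell.

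The sequence just upstream of a TSS is shown for the most accessible promoter, *Itgb1*, for the 3 other genes with a summit inside it and without an exon of a neighbouring gene (*Itga3*, *Itgb3* and *Itgb5*), and for *Itga2*, among the least accessible. Each run covers the 250 bases before the 5′-most coding TSS, read 5′ to 3′ towards the gene from the RefSeq assembly GRCm38.p6. Capitals mark matches, on either strand, to GGGCGG (a GC box), to the CCAAT box, to the TATAAA box, to TGACTCA (the AP-1 motif), to CACGTG (an E-box) or to ACTTCCG (an ETS motif), and a match on the minus strand appears as its reverse complement. *Itga2* had no match in these 250 bases.
Itgb1, chr8:128685404-128685653, plus strand: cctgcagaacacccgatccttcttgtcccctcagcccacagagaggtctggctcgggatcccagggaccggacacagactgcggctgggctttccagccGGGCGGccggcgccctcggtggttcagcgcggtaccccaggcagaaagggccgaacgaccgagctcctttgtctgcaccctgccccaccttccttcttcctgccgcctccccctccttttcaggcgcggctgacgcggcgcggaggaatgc
Itga3, chr11:95076802-95077051, minus strand: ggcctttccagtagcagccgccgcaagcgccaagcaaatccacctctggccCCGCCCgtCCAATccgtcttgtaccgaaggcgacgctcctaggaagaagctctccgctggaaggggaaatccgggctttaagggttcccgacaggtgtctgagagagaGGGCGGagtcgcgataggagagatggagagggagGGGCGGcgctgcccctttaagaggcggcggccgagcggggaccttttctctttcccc
Itgb3, chr11:104607750-104607999, plus strand: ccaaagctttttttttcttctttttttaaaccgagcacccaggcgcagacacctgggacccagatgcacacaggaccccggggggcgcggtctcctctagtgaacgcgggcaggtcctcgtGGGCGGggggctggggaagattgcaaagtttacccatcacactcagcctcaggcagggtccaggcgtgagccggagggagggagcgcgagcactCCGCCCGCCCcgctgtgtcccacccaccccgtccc
Itgb5, chr16:33829415-33829664, plus strand: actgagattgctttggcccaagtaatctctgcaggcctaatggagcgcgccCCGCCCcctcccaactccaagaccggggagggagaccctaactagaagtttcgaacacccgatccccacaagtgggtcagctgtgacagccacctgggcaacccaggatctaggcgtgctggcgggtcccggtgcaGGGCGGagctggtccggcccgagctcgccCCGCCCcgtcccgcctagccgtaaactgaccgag
Itga2, chr13:114932101-114932350, minus strand: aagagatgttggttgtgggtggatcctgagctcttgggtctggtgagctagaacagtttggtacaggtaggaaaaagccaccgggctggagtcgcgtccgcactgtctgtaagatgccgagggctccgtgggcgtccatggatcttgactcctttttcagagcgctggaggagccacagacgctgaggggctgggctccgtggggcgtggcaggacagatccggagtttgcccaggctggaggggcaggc

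The *Itgb1* run held 1 GC box, starting at −151 from the TSS, and the NG summit lay at −53, downstream of it. *Itga3* held GC boxes at −199, −91 and −57 and a CCAAT at −191, and the HG+miR-93 summit was at −92, beside the GC box at −91. The *Itgb3* matches began at −129, −35 and −31, of which the last 2 overlap and make the longest run of capitals, and its NG and HG+NT summits lay at −86 and −108, between the first and the second. *Itgb5* had GC boxes at −199, −63 and −34, with the HG+NT summit at −53. Over the window from 250 bases before to 50 bases after the 5′-most TSS, GGGCGG was found in 9 of the 10 genes, all but *Itga1*, against 43.8% of the promoters of all 21835 genes. CCAAT was found in 2 (*Itga3* and *Itgb8*; 39.0% of all), ACTTCCG in 2 (*Itgav* and *Tln1*; 7.95% of all) and CACGTG in 1 (*Ilk*; 7.71% of all). TATAAA (12.6% of all) and TGACTCA (4.47% of all) were found in none of the 10. The median GC content of the 10 windows was 65%, against 55.3% for all genes, and the median ratio of observed to expected CpG was 0.681 against 0.537. Across all 21835 genes, GC content went with the percentile by fold (Spearman rho of 0.345 in NG, 0.372 under HG+NT and 0.337 under HG+miR-93), with the pileup (0.504, 0.559 and 0.562) and also with the input's local mean (0.384, 0.366 and 0.352). These are descriptions over genes, which share libraries and are not independent replicates.

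As a group, the 10 promoters were more accessible than most in NG and, by fold, nearer to the middle in both high glucose lists. Their median percentile was 87.5 in NG, 58.6 under HG+NT and 62.6 under HG+miR-93, where all genes lay near 50. Ranked by pileup in place of fold, the medians were 75.6, 58.2 and 71.7. By pileup at the 5′-most TSS they were 77.7, 76.0 and 75.6, which lie close together. By fold, above percentile 75 stood 7 of the 10 in NG (*Itgb1*, *Itgav*, *Itgb3*, *Itgb5*, *Itgb8*, *Ilk* and *Tln1*), but 1, *Itgb1*, in each high glucose list. The 3 subunits *Itga3*, *Itga1* and *Itga2*, α partners of β1, were below percentile 30 in NG. Between the 3 lists a gene of the group spanned a median of 29.5 percentile points, from 1.22 points for *Itgb1* to 73.1 for *Ilk*, against 32.6 points for all genes.

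**Figure D1:**
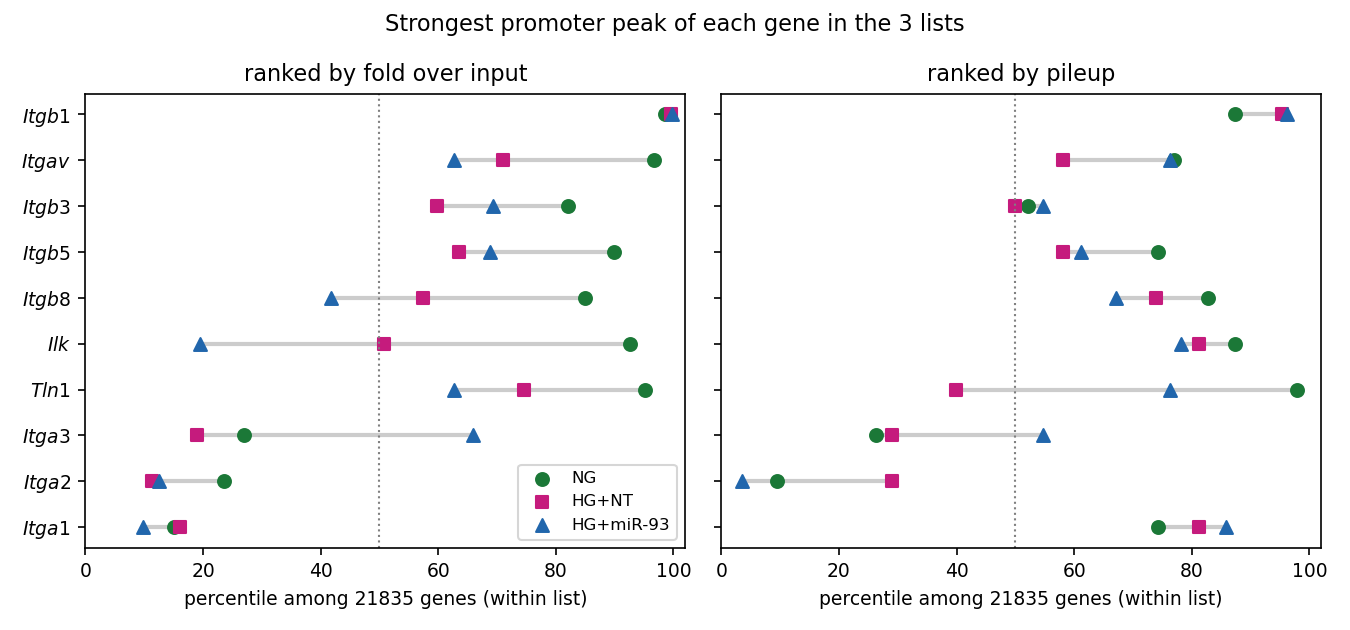
Percentile of each gene's highest-fold promoter peak among 21835 genes, by fold over the input (left) and by the pileup of the same peak (right), in the NG (circles), HG+NT (squares) and HG+miR-93 (triangles) lists. Grey bars join the lowest and the highest of the 3 lists and the dotted line marks percentile 50. By fold 7 genes lie above 75 in NG, and *Itga1* is low by fold and high by pileup.

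*Itgb1*, the β subunit shared by the laminin and collagen receptors, had the strongest promoter of the group by fold in all 3 lists, with the narrowest range of percentiles. Its fold was 3.66 in NG, 4.29 under HG+NT and 3.65 under HG+miR-93, at percentiles 98.5, 99.6 and 99.7. The pileup was 10.7 fragments (6.87 to 15.9) in NG, 12.7 (9.41 to 16.8) under HG+NT and 10.7 (8.05 to 13.9) under HG+miR-93, over an input mean of 2.20 in each, and the intervals of all 3 overlapped. The HG+NT peak was the sole promoter peak of the group with a −log10 q above 0, at 1.15. *Itgb1* lies at chr8:128685654-128733200 (GRCm38, plus strand), and its summits fell 53 nt upstream of the TSS in NG and 66 and 91 nt downstream, in the 5′ untranslated exon, in the high glucose lists. A second coding TSS, 38679 nt into the gene, had folds of 1.57, 2.18 and 2.03. Promoters on chromosome 8 as a whole had a median percentile of 50.9 in NG, 72.6 under HG+NT and 71.2 under HG+miR-93, and the part of this difference in the *Itgb1* values was not tested.

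*Itga3*, which pairs with *Itgb1* to bind laminin, had a weak promoter by fold in NG and HG+NT and stood higher in HG+miR-93, by more than any other gene of the group. By its highest-fold peak it stood at percentile 27.0 in NG, 19.04 under HG+NT and 65.9 under HG+miR-93. These peaks did not lie at the same site: in NG and HG+NT the summit was in a coding exon near an internal TSS 7603 nt into the gene, and in HG+miR-93 in an intron 4024 nt from the 5′-most TSS. At the 5′-most TSS (chr11:95076801, minus strand) the order was alike, with percentiles of 14.8, 10.9 and 54.7. There the pileup was 9.38 fragments (5.81 to 14.3) in NG, 7.53 (5.04 to 10.8) under HG+NT and 7.38 (5.23 to 10.1) under HG+miR-93, with intervals that overlapped. The input's local mean was 7 fragments under the NG and HG+NT peaks and 4 fragments under the HG+miR-93 peak, whose summit was 311 nt from that of HG+NT. In NG and HG+NT the lower bound of the pileup lay below the input mean, so accessibility above the input was not detectable there. Ranked by pileup, the 5′-most promoter of *Itga3* stood at 79.2, 78.9 and 83.4. With promoters of 1000 nt on either side, the difference of HG+miR-93 from HG+NT by fold was −1.61 points.

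*Itga1* and *Itga2*, α subunits of collagen receptors, had low folds in every list, and *Itga2* had few fragments too. *Itga1* (chr13:114953096-115101964, minus strand) was at percentiles 15.01, 16.2 and 9.75 by fold and at 74.2, 81.2 and 85.7 by pileup. Its pileup was 8.49 fragments (5.11 to 13.3) in NG, 7.79 (5.26 to 11.1) under HG+NT and 7.58 (5.39 to 10.4) under HG+miR-93, over an input mean of 6, 6 and 7 fragments. The TSS of another annotated coding gene, Gm49395, lies 43 nt from that of *Itga1* on the same strand, and the 2 cannot be told apart by these peaks. *Itga2* (chr13:114833081-114932100, minus strand) was at 23.6, 11.3 and 12.5 by fold, from peaks at different TSSs. At its 5′-most TSS it had 2.68 fragments (0.983 to 5.83) in NG, 3.64 (1.99 to 6.10) under HG+NT and 3.69 (2.22 to 5.77) under HG+miR-93, against an input mean of 2.40, 3 and 4. The lower bound of each of these intervals lay below the input mean, as it did for *Itga1* in all 3 lists. At neither gene was accessibility above the input detectable at this depth.

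*Itgav*, the α subunit that pairs with β3, β5 and β8, and these 3 β subunits stood high by fold in NG. By fold all 4 stood lower in both high glucose lists. *Itgav* (chr2:83724397-83806916, plus strand) stood at percentile 96.7 in NG, 71.1 under HG+NT and 62.6 under HG+miR-93. Its pileup was 8.93 fragments (5.46 to 13.8) in NG, 5.19 (3.17 to 8.02) under HG+NT and 6.41 (4.41 to 9.01) under HG+miR-93, with an input mean of 2, 2 and 3. The intervals overlapped in each pair of lists, and the ratio of HG+NT to NG pileup was 0.581 (0.297 to 1.14). When the folds of all promoter peaks were summed, which counts a larger number of peaks at its internal TSSs in the high glucose lists, *Itgav* was higher in these than in NG.

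*Itgb3*, whose product forms the vitronectin receptor αvβ3, stood at percentile 82.0 in NG, 59.8 under HG+NT and 69.3 under HG+miR-93. The pileup was 5.36 fragments (2.77 to 9.36), 4.67 (2.77 to 7.39) and 4.86 (3.14 to 7.17), which left it near the middle of all genes by pileup, at 52.2, 49.97 and 54.6. *Itgb5*, of αvβ5, was at 89.9, 63.6 and 68.9, with 8.49 fragments (5.11 to 13.3) in NG, 5.19 (3.17 to 8.02) under HG+NT and 5.25 (3.46 to 7.63) under HG+miR-93. Both genes were lowest in HG+NT, and the pileup intervals of HG+miR-93 and HG+NT overlapped at both. *Itgb8*, of αvβ8, a receptor that activates latent TGF-β, stood at 85.0, 57.3 and 41.8. Its pileup was 9.83 fragments (6.16 to 14.9) in NG, 6.75 (4.41 to 9.89) under HG+NT and 5.64 (3.77 to 8.09) under HG+miR-93. The input mean was 3.20 under each of these peaks and the summits were within 53 nt of each other, 193 to 246 nt downstream of the TSS in the 5′ untranslated exon (chr12:119158022-119238802, minus strand). The HG+miR-93 to NG ratio was 0.574 (0.318 to 1.05). *Itgb3* lies at chr11:104608000-104670476 and *Itgb5* at chr16:33829665-33949338, both on the plus strand.

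*Ilk*, encoding the pseudokinase that links β subunits to parvin and actin, had the widest range of the group by fold. It stood at percentile 92.6 in NG, 50.7 under HG+NT and 19.5 under HG+miR-93. Its pileup was 10.7 fragments (6.87 to 15.9) in NG, 7.79 (5.26 to 11.1) under HG+NT and 6.61 (4.58 to 9.23) under HG+miR-93, while the input mean under the summit was 3, 4 and 5 fragments. Fewer sample fragments and a higher input mean thus entered the fold together, and by pileup *Ilk* stayed high, at 87.4, 81.2 and 78.1. In HG+miR-93 the lower bound of its pileup lay below the input mean. The NG summit was 529 nt downstream of the 5′-most TSS (chr7:105736592, plus strand), and the high glucose summits were 51 and 104 nt upstream of it. The TSS of the divergent gene Rrp8 lies 189 nt away, so that these peaks cannot be assigned to *Ilk* alone.

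*Tln1*, encoding talin 1, which binds the tails of β subunits and switches integrins to their active state, had the highest pileup of the group in NG. At its 5′-most TSS (chr4:43562422, minus strand) the pileup was 14.7 fragments (10.2 to 20.7) in NG, 9.61 (6.77 to 13.2) under HG+NT and 8.75 (6.38 to 11.7) under HG+miR-93, with input means of 4, 6 and 5. By fold this peak was at percentile 95.5, 39.2 and 51.5. The HG+miR-93 to NG ratio was 0.593 (0.370 to 0.960), and *Tln1* was 1 gene of 10 with an interval below 1 in that comparison, which 7.19% of all genes had. In HG+NT against NG and in HG+miR-93 against HG+NT none of the 10 had such an interval, where 3.93% and 2.68% of all genes did. The highest-fold peak of *Tln1* lay elsewhere in HG+NT, in an intron 16357 nt into the gene with 4.15 fragments (2.37 to 6.75), and in HG+miR-93 near a TSS 3962 nt in. The divergent gene Creb3 starts 90 nt from *Tln1*, and the peaks cannot be assigned to either gene alone.

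**Figure D2:**
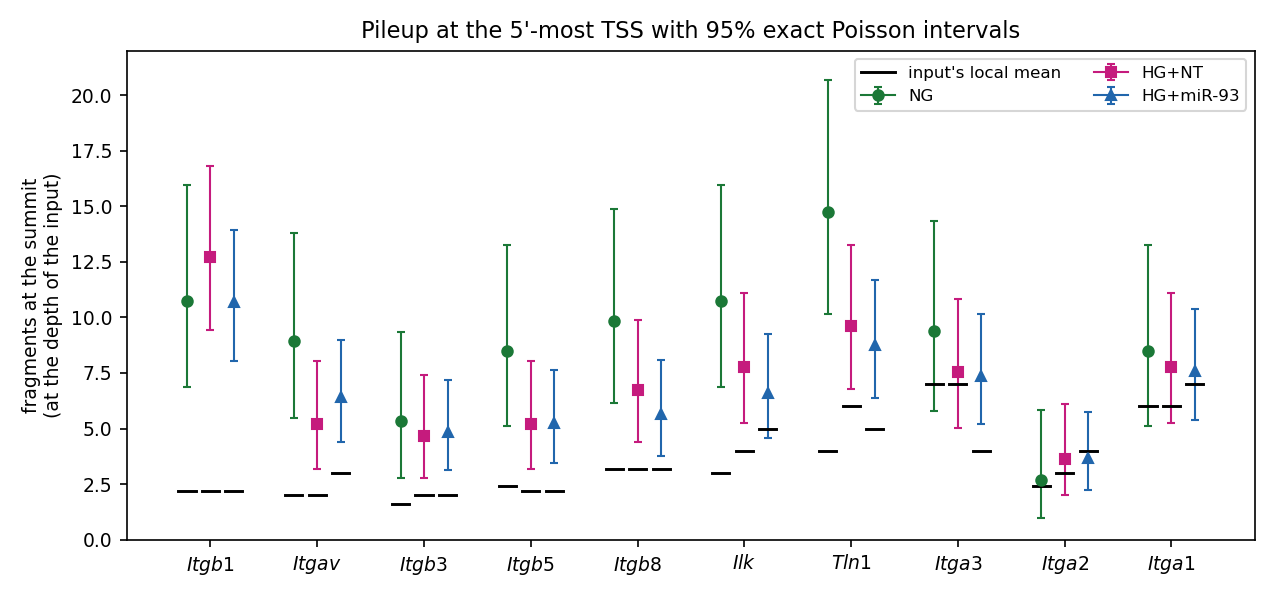
Pileup at the 5′-most coding TSS of each gene, as fragments scaled to the input's depth, with 95% exact Poisson intervals for counting error, in NG (circles), HG+NT (squares) and HG+miR-93 (triangles). Black dashes give the input's local mean under each summit. No gene has intervals that fail to overlap between lists, and the input mean reaches 7 fragments at *Itga3* and *Itga1* but is 2.20 at *Itgb1*.

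The first comparison addressed high glucose, although NG is labelled with no mimic. HG+NT had a higher percentile than NG at 2 of the 10 genes, *Itgb1* and *Itga1*, by 1.12 and 1.15 points, where 50.2% of all genes were higher. The other 8 stood lower, with differences from −7.97 points (*Itga3*) to −41.9 points (*Ilk*). The median change of the group was −21.5 points, against 0.0916 for all genes. By pileup the difference was smaller: 4 of 10 were higher, where 49.7% of all genes were. The median change by pileup was −4.23 points, against −0.126 for all genes. The pileup itself was lower in HG+NT for most genes, with a median ratio to NG of 0.901 over all genes and 0.765 over the 10, both at the 5′-most TSS. Only the pileup intervals of *Tln1* did not overlap, where 2.91% of all genes had that property, and these were peaks at different sites in the 2 lists. At the 5′-most TSS 0 of 10 were without overlap, against 1.63% of all genes.

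Genes that were high in NG mostly stood lower in HG+NT. Of the 5450 genes above percentile 75 in NG, 76.1% were lower in HG+NT, with a median change of −14.4 points. The 7 integrin adhesion genes among them had a median change of −25.6 points, and 6 of the 7 were lower, *Itgb1* being the exception. The reverse held as well: the 5368 genes above 75 in HG+NT changed by a median of −14.5 points when read in NG. The group was chosen by name, with earlier results of these data known. Its NG level was high, and the part of that level in the difference was not tested.

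**Figure D3:**
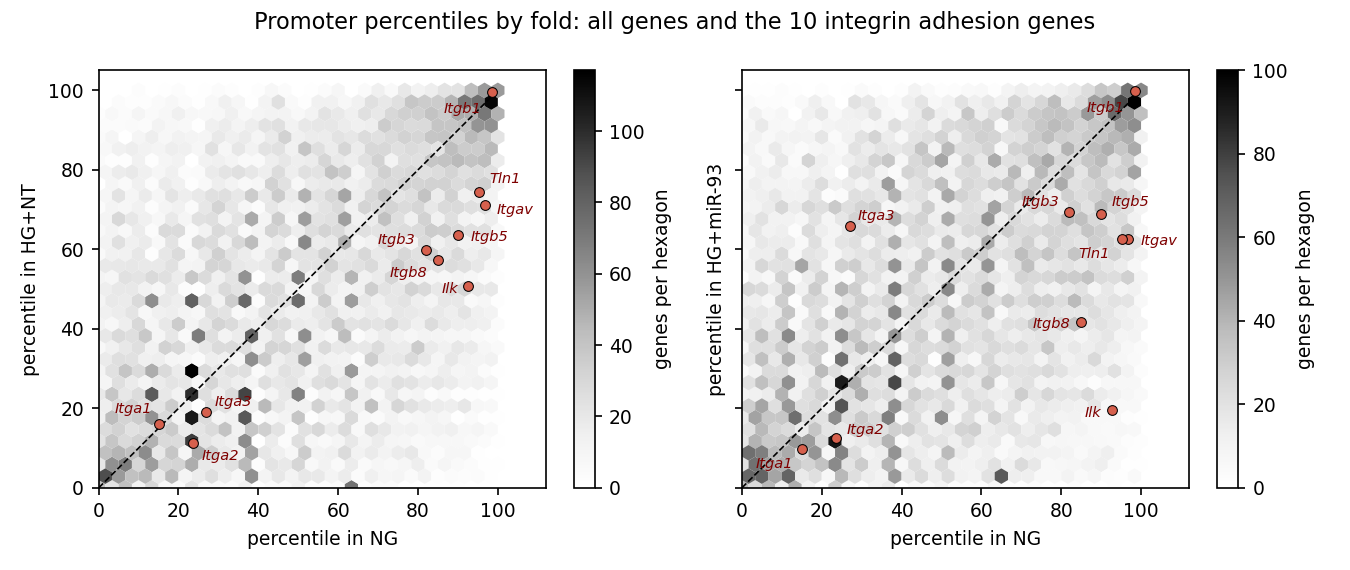
Percentile by fold in HG+NT (left) and HG+miR-93 (right) against that in NG, for all 21835 genes (grey hexagons, darker with more genes) and the 10 integrin adhesion genes (red points). The dashed line marks equal percentiles. In both panels 6 of the 7 genes above 75 in NG lie below the line, and *Itgb1* lies at the upper right corner.

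The second comparison set the miR-93 mimic beside the non-targeting one in high glucose. HG+miR-93 had the higher percentile at 5 of 10 genes (*Itga3*, *Itgb1*, *Itga2*, *Itgb3* and *Itgb5*), where 50.2% of all genes were higher. The differences were 46.9 points for *Itga3*, 9.50 for *Itgb3*, 5.26 for *Itgb5*, 1.19 for *Itga2* and 0.0985 for *Itgb1*, and those farthest in the other direction were −31.2 points for *Ilk* and −15.5 for *Itgb8*. The median change was −3.16 points, against 0.0321 for all genes. By pileup the sign of the median turned, at 3.81 points, against 0.227 for all genes. There 7 of 10 genes were higher, where 51.9% of all genes were. None of the 10 had pileup intervals without overlap, against 2.33% of all genes, and at the 5′-most TSS the same was true, against 0.944%. There the median pileup ratio of HG+miR-93 to HG+NT was 0.977 for the 10 genes and 0.9498 for all.

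Set directly against NG, which differs in glucose and in mimic, HG+miR-93 was higher at 2 of 10 genes, *Itga3* and *Itgb1*, where 49.7% of all genes were higher. The median change was −16.9 points by fold and −3.32 points by pileup, against −0.119 and 0.151 for all genes. The median pileup ratio at the 5′-most TSS was 0.753, against 0.852 for all genes. *Tln1* alone had pileup intervals without overlap, against 3.81% of all genes, and at the 5′-most TSS none had, against 2.18%. HG+NT was the highest or the lowest of the 3 lists at 5 of 10 genes (*Itga3*, *Itga1*, *Itga2*, *Itgb3* and *Itgb5*), where 62% of all genes had HG+NT at an end. At *Itgb3* and *Itgb5* HG+NT was lowest and HG+miR-93 lay between it and NG, whereas at *Ilk*, *Itgb8*, *Itgav* and *Tln1* HG+miR-93 was lower still than HG+NT by fold. By pileup that held for *Ilk* and *Itgb8*, whereas HG+miR-93 stood above HG+NT by 18.1 points at *Itgav* and by 36.3 points at *Tln1*. The *Tln1* peaks behind the 36.3 points lay at different sites, with summits 12583 nt apart. At the 5′-most TSS of *Tln1* the difference by pileup was 2.03 points, and the pileup ratio of HG+miR-93 to HG+NT was 0.910 (0.576 to 1.45). For *Tln1* the order by fold turned at the 5′-most TSS too, at 12.3 points. Each of the 3 lists enters 2 of these comparisons, so their results are not independent of each other.

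The summits lay close to the TSS, and those of a gene were often near each other. At the 5′-most TSS the summits of NG and HG+NT were within 150 nt of each other at 6 of 10 genes, against 30.3% of all genes, and those of HG+NT and HG+miR-93 at 6 of 10, against 34.8%. For NG and HG+miR-93 the count was 4 of 10, against 29.3%. *Itgb8* had the same summit base in NG and HG+NT, and at *Itga1* the 3 summits lay 169 to 240 nt downstream of the TSS. The widest shift was at *Itga2*, with summits at −476, 130 and 229 nt.

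**Figure D4:**
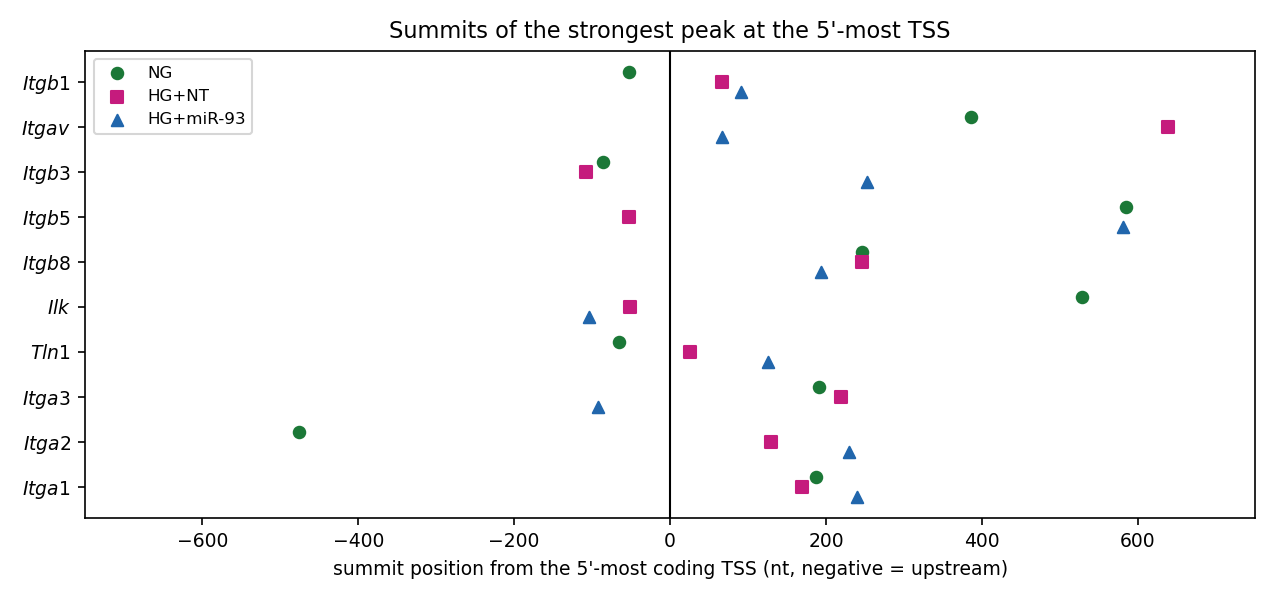
Position of the summit of the strongest peak at the 5′-most coding TSS of each gene, in nt from the TSS (negative is upstream), for NG (circles), HG+NT (squares) and HG+miR-93 (triangles). Most summits lie within 250 nt of the TSS; those of *Itgb8* coincide in NG and HG+NT, and *Itgav*, *Itgb5* and *Ilk* have 1 or 2 summits more than 500 nt downstream.

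Within the gene body, from the promoter to the 3′ end, the promoter peak was the strongest by fold at 6 of the 10 genes in NG, 5 under HG+NT and 2 under HG+miR-93. Over all genes this was so at 58.4%, 58.6% and 55.5%. Peaks at internal TSSs were counted as promoter peaks. The one counted for *Tln1* under HG+NT lay 16357 nt into the gene, with a fold of 2.12 against 1.52 at the 5′-most TSS. In HG+miR-93 the 2 genes were *Itgb1* and *Ilk*, of which *Ilk* had 1 peak in all. The strongest peak of *Itgb5* in that list lay in an intron, 30828 nt from the TSS, with a fold of 2.93 against 1.95 at the promoter. At *Itga1*, *Itga2* and *Itga3* a peak elsewhere in the gene was stronger than the promoter in every list.

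Most other genes of the pathway stood higher in HG+NT than in NG. Of the 18 other integrin subunits, 12 were on that side, where 50.2% of all genes were, with a median change of 9.84 points, and their median percentiles were 47.7, 59.8 and 45.2. The most accessible by mean percentile were *Itga5*, of the fibronectin receptor (88.0, 89.3 and 54.3), and *Itga8*, of the nephronectin receptor, which was counted among the mesangial genes too (46.4, 71.1 and 82.0). The least were *Itga10*, of a collagen receptor (7.15, 9.21 and 39.2), and *Itgb6*, of αvβ6 (21.0, 9.21 and 34.2). Of 24 other focal adhesion genes, 16 were higher in HG+NT, with a median change of 10.6 points, and their medians were 66.2, 77.9 and 66.7. *Zyx*, encoding zyxin (88.2, 98.7 and 92.7), and *Ptk2*, encoding focal adhesion kinase (96.2, 86.9 and 92.1), were the highest, and *Tns3*, encoding tensin 3 (55.0, 19.98 and 9.84), and *Actn1*, encoding α-actinin 1 (15.01, 39.4 and 48.9), the lowest. From HG+NT to HG+miR-93 the median change was −0.58 points for the subunits and −8.05 points for the focal adhesion genes. By pileup 8 of the 10 integrin adhesion genes had a mean percentile above 50, against 4 of the 18 other subunits and 20 of the 24 focal adhesion genes. The share of all genes above 50 is not given here. The median of all genes by pileup was 47.8 in NG, 49.97 under HG+NT and 50.8 under HG+miR-93.

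Over the 3 percentiles, the genes most like *Itgb1* were Crocc (98.7, 99.8 and 99.5) and Khsrp (98.4, 99.98 and 99.7), at Euclidean distances of 0.324 and 0.360 percentile points, and 406 genes lay within 10 points. Most like *Itga3* were Gm9736 (27.0, 21.7 and 66.9) and Dph5 (28.7, 20.3 and 68.1), at distances of 2.90 and 3.01, with 55 genes within 10 points. With 3 conditions behind each distance, near neighbours are easily found.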

How the data were processed

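DNase-Seq of 3 conditions of mouse podocytes was analysed from 3 lists of peaks in the narrowPeak format. Upstream, the authors used TrimGalore! for trimming and Bowtie for alignment (mm10), removed duplicates, and ran MACS2 with digested genomic DNA as control; CASAVA 1.8.2 is also named in the submitters' processing notes. The parameters of the peak caller are not given in the sources used here, and the names of the lists imply that replicates were joined. The authors deposited for each peak a fold (a ratio to the input's local mean with a pseudocount of 1), a −log10 p, a −log10 q and a score that repeats the −log10 p on another scale and was not used here. Their comparison of reads around each TSS was not repeated.

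GENCODE vM21 gave the protein-coding TSSs (GRCm38, the same build as the lists, whose peaks all end within its chromosomes). Fold and p together give the number of fragments at each summit and the local mean of the input, with the mean restricted to steps of 0.02 fragments. That step was noticed after the values had been seen, and gave 1 solution for 99.5% to 99.99% of promoter peaks, against 90.6% to 97.5% without it. The solving, the assignment of peaks to TSSs and the intervals were tested on simulated data. Percentiles were taken within each list, ratios of pileups have exact conditional 95% intervals, and no test was run, since each condition has 1 list. PCR copies without molecular identifiers are not independent molecules, so intervals cover counting error only.

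The 10 genes, the lists of other integrin subunits, focal adhesion genes and cell type markers, the motifs and the comparisons were chosen with earlier results of these data known. All 10 genes were named; of the other subunits and of the focal adhesion genes the 2 highest and 2 lowest by mean percentile were named, and the 2 genes nearest in percentiles to *Itga3* and to *Itgb1*. Alternatives were ranking by −log10 p or by pileup, summed folds, promoters of 1000 nt on either side, summits within 500 nt, peaks with a −log10 p of at least 1, genes with a mean percentile of at least 50, folds over the chromosome's median and 99% intervals. The peak of highest pileup as the peak ranked and the 5′-most TSS alone were added after seeing the data. Sequences came from RefSeq GRCm38.p6 by coordinates. Single replicates were not analysed here, and the values of 2 podocyte markers are not reported here. The software was Python 3.11.15 with pandas 2.3.3, numpy 2.4.6, matplotlib 3.10.9 and scipy 1.17.1.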

Additional observations from a re-analysis of the deposited data

How the results depend on the processing

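No paired analysis was possible because each list joins the replicates of its condition, and for the same reason no replicate could be left out. The lower place of the group in HG+NT than in NG kept its direction under every alternative run, with median changes from −40.8 points among peaks with a −log10 p of at least 1 (5 genes) to −4.23 points by pileup. Of the 10 genes, 2 were higher in HG+NT than in NG, and this became 1 by −log10 p, 1 (of 5) with a −log10 p of at least 1, 1 (of 7) with a mean percentile of at least 50, and 4 by pileup. The 5 genes that HG+miR-93 had higher than HG+NT became 3 (of 5) under the minimum −log10 p, 3 (of 7) under the minimum mean percentile and 3 under the chromosome's median. The count became 8 with the peak of highest pileup and with the 5′-most TSS ranked by pileup. The 5 genes with HG+NT at an end became 3 by −log10 p, 2 (of 5) under the minimum −log10 p and 2 (of 7) under the minimum mean percentile. They became 7 with summed folds, 6 at the 5′-most TSS by fold and 4 with promoters of 1000 nt. The median percentile in HG+miR-93, 62.6, was 71.7 by pileup, 73.4 with the peak of highest pileup and 75.6 at the 5′-most TSS ranked by pileup, where that in HG+NT was 76.0 and that in NG 77.7. The 1 gene whose intervals did not overlap, *Tln1*, became 0 in both comparisons with NG with the peak of highest pileup and at the 5′-most TSS, 0 in HG+NT against NG with summits within 500 nt, and 0 in HG+miR-93 against NG with 99% intervals.

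Each of the 10 genes has 3 differences between lists, and of these 30, 16 kept their sign under every alternative run and 14 did not, with the other sign in 41 of 282 alternative values. Among the 11 differences of at least 25 points by fold the sign turned in 3 values: *Itgav* with summed folds stood 9.91 points above NG under HG+NT and 13.5 points above it under HG+miR-93, and the step of *Itga3* between the high glucose lists was −1.61 points with promoters of 1000 nt. The smaller differences turned more often, in 38 of 180 values. That of *Tln1* between the high glucose lists, −11.9 points, kept its sign in 4 of 10 alternatives and was 36.3 points by pileup and 23.8 points with summits within 500 nt. The peaks behind the −11.9 and 36.3 points lay at different sites in the lists, and at the 5′-most TSS by pileup the difference was 2.03 points. From NG to HG+NT *Itga3* moved from −7.97 to 42.2 points with promoters of 1000 nt and *Itga2* from −12.3 to 19.6 points by pileup. *Itgb5*, *Itgb8* and *Ilk* kept their direction in all 9 alternatives for each comparison. The depth limits each promoter: a median NG promoter peak of 9 fragments before scaling has a wide interval. None of the 10 genes could be told apart between lists at a fixed TSS by intervals that do not overlap. In the cases that changed, the cause was not tested, except that the minima leave fewer genes.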

Other observations

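Outside the 10 genes, *Vcl*, encoding vinculin, was the 1 focal adhesion gene of 24 whose pileup intervals did not overlap between NG and HG+NT, where 2.91% of all genes had that property, and it is named after its values were seen. Between NG and HG+miR-93 there were 3, *Vcl*, *Ptk2* and *Tns3*, where the share of all genes was 3.81%. The highest-fold promoter peak of *Vcl* held 4.02 fragments in NG, 14.3 under HG+NT and 15.4 under HG+miR-93, and its percentile by fold was 58.8, 90.3 and 74.4. *Itgb7*, a subunit of leukocyte integrins, also noticed afterwards, stood at 11.7 in NG, 86.6 under HG+NT and 97.7 under HG+miR-93, with 3.13, 6.23 and 7.38 fragments. Its pileup intervals overlapped in every comparison, as did those of all 18 other integrin subunits, *Itgb7* included. Between HG+NT and HG+miR-93 the share of all genes without overlap was 2.33%. Neither the *Vcl* nor the *Itgb7* difference has a replicate behind it. For *Vcl*, *Ptk2*, *Tns3* and *Itgb7* the sites of the peaks were not compared between lists.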
